A study of Mus musculus with 6 samples.

Results

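The genes of methionine, folate and serine metabolism were followed across 8 classes of mouse spleen cells under 2 diets. They are 36 of the 32285 genes in the count tables and were named by symbol, not by their values: 7 of the methionine cycle, 7 of the folate cycle, 3 of serine synthesis, 5 of transsulfuration and glutathione synthesis, 4 of methionine salvage, 5 transporters and 5 of the polyamine branch. All 36 were found. Splenocytes of wild-type C57BL/6 mice, 6 weeks old at the start, were profiled by droplet-based 3′ single-cell RNA sequencing after 7 weeks of feeding with ND (3 libraries) or with MCDHFD (3 libraries). The labels do not spell out either diet (2 names, MCD and MCDHFD, are used for the second). In this field MCDHFD is a high-fat diet deficient in methionine and choline, used as a model of steatohepatitis. The labels do not say whether a library is 1 animal, so every p-value measures the spread between libraries only.

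Methionine is joined to ATP to give S-adenosylmethionine, the methyl donor of DNA, histone and phospholipid methylation. The homocysteine that remains is either methylated back to methionine with a folate-borne carbon, most of which comes from serine, or passed on to cysteine and glutathione. Polyamine synthesis spends decarboxylated S-adenosylmethionine and releases methylthioadenosine, from which the salvage enzymes rebuild methionine. The folate cycle also feeds purine and thymidylate synthesis, which makes several of these genes abundant in dividing cells.

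Cells were barcodes with at least 1000 UMIs (unique molecules) and at most 10% of them mitochondrial, and a class was set by marker genes: Cd79a for B cells, Cd3e with Cd8b1 or Cd4 for CD8 or CD4 T cells, Ncr1 without Cd3e for NK cells, Csf1r for monocytes and macrophages, Csf3r with S100a8 for neutrophils, Flt3 with H2-Aa for dendritic cells and Klf1 for erythroid cells. Cells that met more than 1 of these gates were left out. The classes held 15531 B, 3065 CD8 T, 2135 CD4 T, 791 NK, 1738 monocyte or macrophage, 1017 neutrophil, 286 dendritic and 167 erythroid cells. Markers other than the gate genes were summed in each class, as CPM, counts per 1000000 UMIs of that class and library. The 5 B cell markers took 3129 to 4058 CPM in B cells, the 5 T cell markers 1951 to 2724 CPM in the T cell classes, and the 6 erythroid markers 2480 to 7221 CPM in erythroid cells. Within the Klf1 class Car2 (1142 to 3050 CPM) and Ermap (239 to 357 CPM) were abundant, while the late gene Alas2 was at 5.74 to 17.4 CPM. Haemoglobin was not highest there: monocytes and macrophages held 1271 to 13470 CPM of Hbb-bs against 388 to 1247 CPM in the Klf1 class, called erythroid below after its gate.

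The libraries came in 2 forms. ND replicates 1 and 3 and MCDHFD replicates 1 and 2 hold unfiltered barcode lists, and ND replicate 2 and MCDHFD replicate 3 hold filtered ones, with headers of another Cell Ranger version. Cells numbered 3278 to 6625 per library, total UMIs 21259837 to 62238012, and any 2 libraries shared at most 18 cell barcodes. Cell barcodes of one library also recur in the whole, unfiltered lists of others, across the diets. All 4962 cell barcodes of ND replicate 3 were in the list of MCDHFD replicate 1 and 4951 in that of MCDHFD replicate 2, and 6624 of the 6625 of MCDHFD replicate 1 were in that of ND replicate 3. ND replicate 1 stood apart, with 2174 to 2429 of its 6548 in the lists of the other 3 unfiltered libraries. The filtered pair stood apart in the members too. In B cells, 15 of 36 members were higher in both filtered libraries than in all 4 others, and 7 were lower. How many of all genes did so was not counted, so these counts are not a result about the members. Ahcy, which encodes the hydrolase that clears S-adenosylhomocysteine, was at 30.9 and 34.6 CPM in the 2 filtered libraries and at 3.35 to 4.21 CPM in the other 4. Srm, spermidine synthase, was at 41.7 to 53.7 CPM against 17.5 to 21.4 CPM. Diet was therefore tested beside a term for list form, and a test of diet alone is given with it. Values below are in the order of replicates 1, 2 and 3, so the second ND value and the third MCDHFD value come from the filtered pair.

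Stretches upstream of 4 member genes are printed here because the results below turn on these genes: Tyms and Odc1, which were lower with MCDHFD in particular classes, Slc38a2, which was higher in neutrophils, and Phgdh, the first enzyme of serine synthesis. They are RefSeq promoter sequence of GRCm38.p6, 5′ to 3′, cut where the annotated gene begins, with motif matches in capitals.
Tyms, chr5:30073626-30073875, minus strand: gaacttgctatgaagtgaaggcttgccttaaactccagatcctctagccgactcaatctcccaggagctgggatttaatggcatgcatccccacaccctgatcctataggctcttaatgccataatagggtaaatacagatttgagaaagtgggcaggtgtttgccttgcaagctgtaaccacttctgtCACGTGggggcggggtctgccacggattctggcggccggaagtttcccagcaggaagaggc
Odc1, chr12:17544623-17544793, plus strand: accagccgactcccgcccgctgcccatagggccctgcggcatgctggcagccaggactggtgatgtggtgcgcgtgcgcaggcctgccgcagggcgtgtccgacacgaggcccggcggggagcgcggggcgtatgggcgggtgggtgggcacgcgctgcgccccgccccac
Slc38a2, chr15:96699731-96699978, minus strand: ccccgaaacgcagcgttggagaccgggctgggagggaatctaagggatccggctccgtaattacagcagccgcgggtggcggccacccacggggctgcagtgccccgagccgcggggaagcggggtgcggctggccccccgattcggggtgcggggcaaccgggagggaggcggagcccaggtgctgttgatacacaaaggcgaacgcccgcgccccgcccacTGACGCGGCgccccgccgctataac
Phgdh, chr3:98339991-98340219, minus strand: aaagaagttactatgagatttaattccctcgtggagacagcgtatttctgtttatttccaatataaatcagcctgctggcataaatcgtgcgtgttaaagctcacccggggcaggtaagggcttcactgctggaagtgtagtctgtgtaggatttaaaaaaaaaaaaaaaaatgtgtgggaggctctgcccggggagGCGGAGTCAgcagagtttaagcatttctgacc

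Promoters were found for 30 of the 36 members, and 3 motifs were searched on both strands in the 250 bases before each start. These starts are RefSeq's, and some windows lie inside the annotated gene. Among these are all 250 bases for Ahcyl2, Mat2b, Mthfd2, Mthfs and Psat1, and 248 for Mtap. CACGTG, the E-box that Myc proteins and others can bind, was present in 3 of the 30 members (Cbs, Sms and Tyms), or 10%, against 6.86% of all 27025 genes with a promoter. TGACNNNGC, the core of the antioxidant response element, was in 5 (Ahcyl1, Gclm, Phgdh, Slc19a1 and Slc38a2), or 16.7%, against 11.5% of all genes. TGATGCAA, a form of the amino acid response element, was in 0 of the 30 and in 0.918% of all genes. The Odc1 stretch holds none of the 3. A match of letters is a description and not a site.

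Erythroid cells held the highest mean level of 27 of the 36 genes, and of 17 in every library. The share of all genes that peak in this class was not counted, so the 27 are not shown to set the members apart. The folate enzyme Mthfd1, the trifunctional enzyme of the cytosolic cycle, was at 199, 280 and 198 CPM in ND and 248, 233 and 278 CPM in MCDHFD erythroid cells. In CD8 T cells, the next class, it stood at 20.9 to 32.6 CPM, so the classes did not overlap. Gclm, the modifier subunit of glutamate-cysteine ligase, was at 351 to 429 CPM in erythroid cells and at 31.1 to 101 CPM in monocytes and macrophages. Odc1, the entry enzyme of polyamine synthesis, reached 256 to 365 CPM there against 16.2 to 62.0 CPM in CD4 T cells. Tyms, thymidylate synthase, was at 120 to 182 CPM against 6.2 to 47.5 CPM in neutrophils. Slc19a1, the reduced folate carrier, was at 19.4 to 53.0 CPM against 5.53 to 13.4 CPM in CD8 T cells. Srm was at 148 to 381 CPM in erythroid and 21.5 to 67.3 CPM in CD8 T cells, and Apip, a salvage dehydratase, at 42.2 to 82.9 CPM against 19.4 to 37.6 CPM in dendritic cells. Slc7a5, a carrier of large neutral amino acids, was at 28.8 to 71.0 CPM against 8.84 to 21.0 CPM in CD8 T cells. For Mtr, methionine synthase, the ranges of erythroid cells (44.9 to 89.5 CPM) and of monocytes and macrophages (36.5 to 65.7 CPM) overlapped. The summed level of 6 cycling markers was also high in erythroid cells, at 957 to 1955 CPM, and its part in the order of the classes was not tested.

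**Figure D1:**
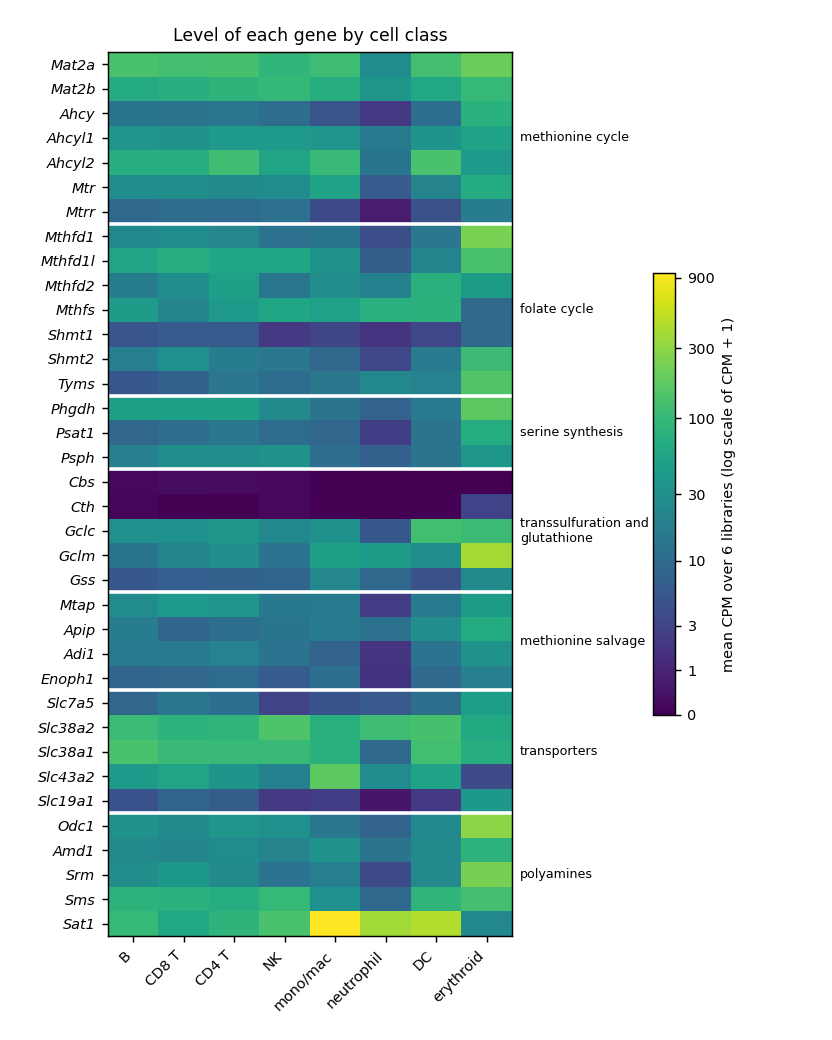
Mean level of the 36 genes (rows, grouped by role) in 8 cell classes (columns), in CPM over 6 libraries, on a log colour scale of CPM + 1. The erythroid column is brightest for 27 genes, while Sat1 (mean 971 CPM) and Slc43a2 (mean 171 CPM) peak in monocytes and macrophages and Cbs is near 0 everywhere.

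The genes that erythroid cells did not lead fall in myeloid and other classes. Sat1, which acetylates spermidine and spermine for export or breakdown, was at 720, 1072 and 816 CPM in ND and 903, 899 and 1416 CPM in MCDHFD monocytes and macrophages. Dendritic cells held 318 to 677 CPM, below that range, while neutrophils at 210 to 613 CPM overlapped with dendritic cells, and erythroid cells held 15.2 to 30.1 CPM. Slc43a2, a sodium-independent carrier of large neutral amino acids that include methionine, was at 132 to 209 CPM in monocytes and macrophages and at 43.6 to 66.0 CPM in CD8 T cells. Mthfs, which returns 5-formyltetrahydrofolate to the cycle, was lowest in erythroid cells at 7.39 to 11.5 CPM. Highest for it were dendritic cells (67.4 to 105 CPM) and neutrophils (53.1 to 112 CPM), whose ranges overlapped. Neutrophils had the lowest mean level of most members, and the share of all genes lowest there was not counted. The filter on low counts was passed there by 15 of 36 members, against 34 in B cells. Of all genes 6619 passed it in neutrophils and 12978 in B cells, on summed UMIs of 8011294 and 98209100.

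Both enzymes that carry homocysteine to cysteine were almost absent. Cbs gave 30 UMIs over all classes and libraries, with 0 in erythroid cells, where a count of 0 allows up to 0.409 CPM (counting error only). Cth gave 38 UMIs, of which 26 were in erythroid cells, 17 of them in MCDHFD replicate 3 and 6 in MCDHFD replicate 1. Neither passed the filter in any class. The glutathione genes that use cysteine (Gclc, Gclm and Gss) were detected in every class.

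With list form in the model, 11 diet changes were called among the members in 7 tested classes (edgeR's quasi-likelihood test, with p adjusted by Benjamini-Hochberg over all genes of the class and a threshold of 0.05). B cells gave 1 of 34 members, where 7.03% of all genes were called. CD8 T cells gave 1 of 34, with 2.54% of genes called, and CD4 T cells gave 3 of 34, with 4.7%. Neutrophils gave 6 of 15 where 27.9% of genes were called. NK cells gave 0 of 23, monocytes and macrophages 0 of 29, and dendritic cells 0 of 20, against 5.11%, 0.771% and 1.13% of genes. DESeq2 also called 0 members in these 3 classes, where it called 89 of 7822, 182 of 9729 and 34 of 6392 genes. At an unadjusted p under 0.05 edgeR counted 4, 8 and 2 members, where 19.8%, 12.8% and 11.0% of all genes were under it. The median log2 change of the members lay between -0.20 in neutrophils and 0.04 in CD4 T cells, and that of all genes tested between -0.02 and 0.04. With diet alone, 1 of the 11 calls was made, Tyms in neutrophils. That model called 0% of all genes in B cells, 0.00974% in CD8 T cells, 0% in CD4 T cells, 0% in NK cells, 0.0514% in monocytes and macrophages, 6.09% in neutrophils and 0% in dendritic cells.

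**Figure D2:**
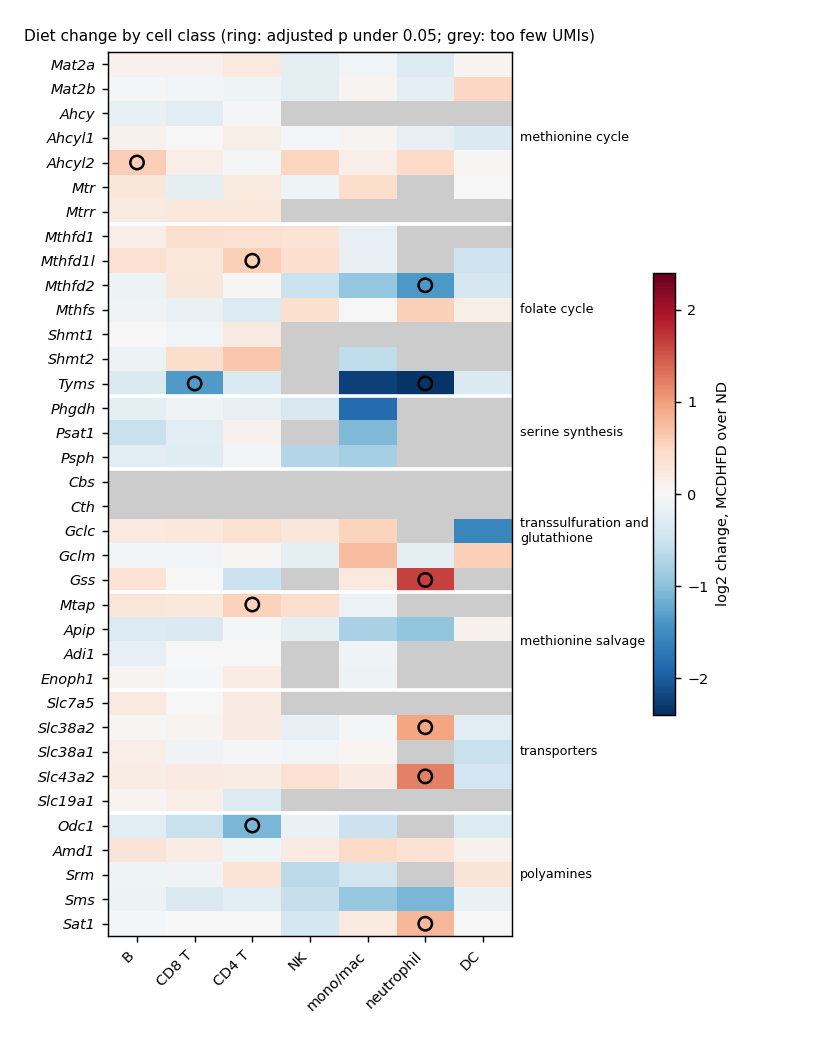
Log2 change of each gene (MCDHFD over ND, colour) in 7 cell classes from the model with list form. The 11 rings mark adjusted p under 0.05, 6 of them in neutrophils, and grey cells had too few UMIs for the test.

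In the methionine cycle the 1 call was in B cells, where Ahcyl2 rose. Ahcyl2 is a relative of S-adenosylhomocysteine hydrolase that binds other proteins and is not known to share its activity. It was at 66.0, 34.1 and 70.3 CPM in ND and 108, 117 and 42.9 CPM in MCDHFD B cells, a log2 change of 0.60 (SE 0.0948, adjusted p = 0.00914). The groups overlapped because the filtered pair lay low in both diets. Within the unfiltered libraries the log2 difference was 0.73 and within the filtered pair 0.33. T cell markers in B cells summed to 35.0 to 69.7 CPM in ND and 54.4 to 92.4 CPM in MCDHFD, and 4 of 5 rose, while cycling markers summed to 78.2 to 139 CPM and 16.7 to 27.2 CPM, and 6 of 6 fell. Ahcyl2 was at 59.4 to 159 CPM in CD4 T cells, and the part of these markers in its change in B cells was not tested. Without cells with a cycling marker the log2 change was 0.55 (adjusted p = 0.0121). The call was lost without ND replicate 3 (adjusted p = 0.073) and without MCDHFD replicate 2 (0.0594). In the RNA outside cells, read from barcodes with at most 100 UMIs in the 4 unfiltered libraries, Ahcyl2 was at 36.9 and 33.2 CPM in ND and 56.6 and 64.0 CPM in MCDHFD, and its part in the change was not tested. Mat2a, the S-adenosylmethionine synthetase of these cells, had a log2 change of 0.11 in B cells (SE 0.101, adjusted p = 0.54). Mat2b, its regulatory subunit, was higher in every MCDHFD library in dendritic cells, at 57.2, 43.5 and 44.7 CPM against 62.2, 58.0 and 101 CPM, and was not called (0.50, SE 0.26, adjusted p = 0.514).

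In the folate cycle Tyms fell in CD8 T cells and in neutrophils. CD8 T cells held 8.41, 13.5 and 10.0 CPM of Tyms with ND and 4.29, 3.52 and 4.74 CPM with MCDHFD, a log2 change of -1.36 (SE 0.248, adjusted p = 0.00564). Neutrophils held 47.5, 25.2 and 43.5 CPM with ND and 11.0, 6.2 and 9.44 CPM with MCDHFD, a log2 change of -2.36 (SE 0.341, adjusted p = 0.000564). In both classes each MCDHFD library lay below each ND library. Tyms is made for DNA synthesis, and markers of dividing cells moved with it. The 6 cycling markers summed to 25.1 to 102 CPM in ND and 4.89 to 7.78 CPM in MCDHFD CD8 T cells, and all 4 of them that could be tested fell. In neutrophils they summed to 623 to 817 CPM and 153 to 535 CPM, and 4 of 6 fell. Outside cells Tyms was at 27.3 and 21.0 CPM in ND and 11.6 and 12.6 CPM in MCDHFD, which is above its level in CD8 T cells of the same diet, and the part of this free RNA was not tested. Without the cells that had a UMI of any of these markers, the log2 change of Tyms in CD8 T cells was -0.32 (adjusted p = 0.715), and in neutrophils Tyms no longer passed the filter. The CD8 call was also lost without a filter on low counts (adjusted p = 0.107) and with cells of more than 1 gate kept (0.384).

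**Figure D3:**
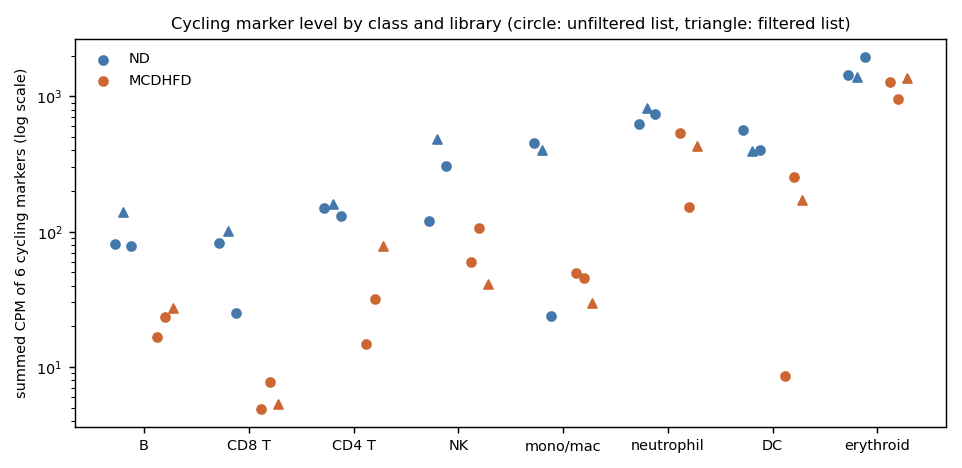
Summed level of 6 cycling markers (Mki67, Top2a, Birc5, Cdk1, Ccna2 and Ccnb2) in each class and library, as CPM on a log axis, with ND in blue and MCDHFD in orange, circles for unfiltered and triangles for filtered lists. In all classes but monocytes and macrophages every MCDHFD library lies below every ND library, and erythroid cells hold 957 to 1955 CPM.

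Mthfd2, the mitochondrial folate enzyme that is usually high in growing cells, fell in neutrophils and was not called elsewhere. Its levels were 25.2, 30.5 and 25.1 CPM in ND and 8.79, 9.74 and 18.9 CPM in MCDHFD neutrophils, without overlap (log2 change -1.38, SE 0.331, adjusted p = 0.00779). The neutrophil call held in 14 of 17 other settings. It was lost with diet alone, with cells of more than 1 gate kept and without ND replicate 1 (adjusted p = 0.0939). In monocytes and macrophages Mthfd2 was at 35.9, 35.4 and 43.0 CPM and at 20.4, 28.1 and 12.6 CPM, also without overlap, at an adjusted p of 0.15. Mthfd1l, the mitochondrial formate-producing enzyme, rose in CD4 T cells. There it was at 45.7, 37.5 and 56.5 CPM in ND and 86.7, 71.6 and 49.8 CPM in MCDHFD, a log2 change of 0.58 (SE 0.139, adjusted p = 0.0236), with overlap through the filtered MCDHFD library. This call was lost with DESeq2 (adjusted p = 0.127) and without ND replicate 1, ND replicate 3 or MCDHFD replicate 1 (highest adjusted p = 0.167). Outside cells Mthfd1l was at 30.7 and 25.9 CPM in ND and 37.5 and 42.5 CPM in MCDHFD. The part of this free RNA was not tested.

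Serine synthesis gave no call in the 7 tested classes, and its levels in erythroid cells differed by diet. Phgdh, the first and rate-setting step, was at 133, 135 and 64.8 CPM in ND and 182, 205 and 301 CPM in MCDHFD erythroid cells. Psat1, the transaminase that follows, was at 34.1, 58.5 and 27.4 CPM in ND and 71.2, 75.2 and 156 CPM in MCDHFD. For both genes every MCDHFD library was above every ND library, and these levels are untested. Psph, the last step, overlapped, at 39.2, 39.0 and 22.7 CPM and at 34.1, 25.1 and 64.3 CPM. Shmt2, which takes the serine carbon into the mitochondrial folate pool, was at 53.4, 114 and 56.8 CPM and at 84.1, 100 and 259 CPM, and was higher with MCDHFD within each list form. MCDHFD replicate 2 had 14 erythroid cells, under the minimum of 20, so these sums were not tested.

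A test was possible with cells of more than 1 gate kept, which leaves 25 to 67 erythroid cells per library. The cells added numbered 25, 11 and 21 with ND and 12, 11 and 25 with MCDHFD. Of these, 19, 8 and 14 with ND and 6, 4 and 10 with MCDHFD also met the B cell gate. In B cells Psat1 was at 4.75 to 16.0 CPM, and the part of the added cells in the result was not tested. Psat1 rose by a log2 of 1.27 (SE 0.176, adjusted p = 0.0192), where 0.109% of all genes (10 of 9189) were called. Phgdh (0.83, SE 0.181, adjusted p = 0.251) and Shmt2 (0.82, SE 0.192, adjusted p = 0.309) did not pass. Psat1 was no longer called when ND replicate 1, ND replicate 2, MCDHFD replicate 1 or MCDHFD replicate 3 was left out, among the 4 unfiltered libraries alone (adjusted p = 0.427) and with diet alone (log2 change 1.37, adjusted p = 0.999), with log2 changes of 1.16 to 1.43 over 8 alternative fits. Erythroid markers ran from 3148 to 7221 CPM with ND and from 2480 to 4644 CPM with MCDHFD, and their part in the difference was not tested. In the summed counts of a class, a shift in the stage of its cells and a change within cells cannot be told apart.

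**Figure D4:**
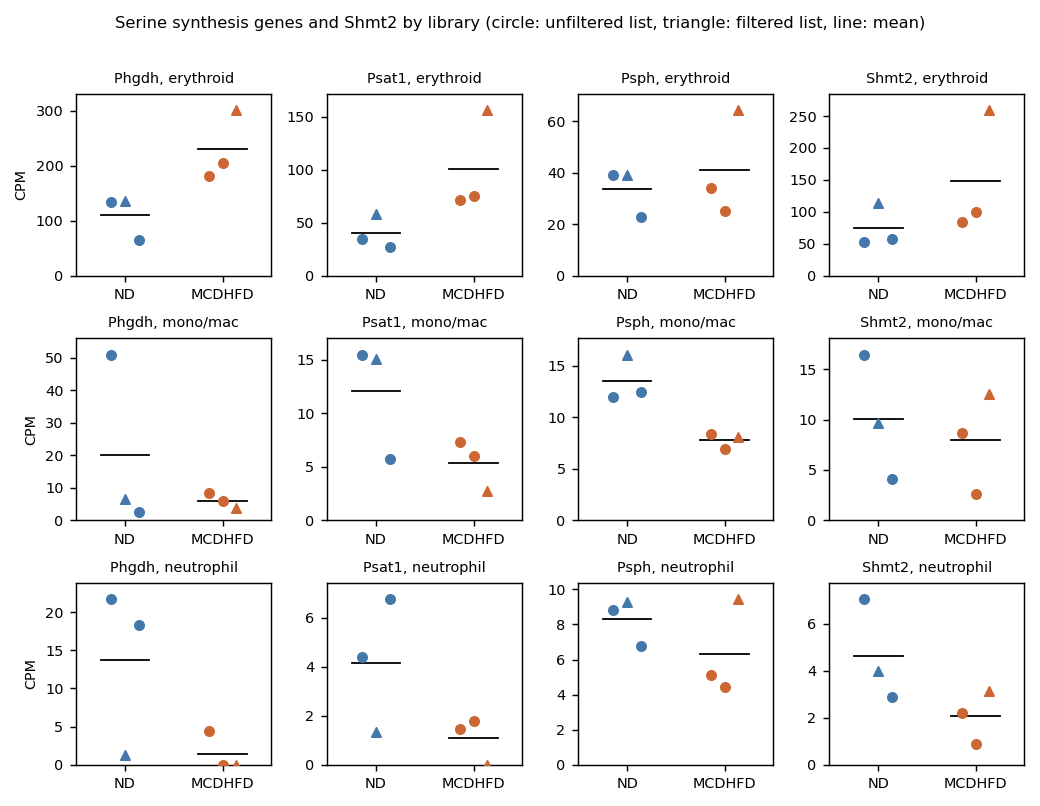
Level of the 3 serine synthesis genes and Shmt2 in each library (CPM, axes from 0) in erythroid cells, monocytes and macrophages, and neutrophils, with circles for unfiltered lists, triangles for filtered lists and lines for the mean of 3 libraries. In erythroid cells Phgdh and Psat1 lie higher in all 3 MCDHFD libraries, while Psph in monocytes and macrophages lies lower in all 3.

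The tested serine genes all had negative log2 changes in B, CD8 T and NK cells and in monocytes and macrophages. In CD4 T cells their log2 changes ran from -0.19 to 0.11. None of them passed the test. Psat1 in B cells was at 6.91, 16.0 and 8.07 CPM in ND and 4.75, 5.85 and 10.5 CPM in MCDHFD (log2 change -0.54, SE 0.139, adjusted p = 0.0533). Psph in monocytes and macrophages was at 12.0, 16.1 and 12.4 CPM and at 8.38, 6.97 and 8.10 CPM, without overlap (-0.80, SE 0.263, adjusted p = 0.267). In NK cells Psph was at 34.6, 32.7 and 42.2 CPM and at 27.3, 22.1 and 34.0 CPM, with overlap (-0.69, SE 0.274, adjusted p = 0.14). Phgdh in monocytes and macrophages was at 50.9 CPM in ND replicate 1 and at 2.59 to 8.38 CPM in the other 5 libraries, so its mean there rests on that library. In neutrophils none of the 3 passed the filter.

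Of the 5 transporters, 2 rose in neutrophils and none was called in another class. Slc43a2 was at 15.0, 15.9 and 16.4 CPM in ND and 36.6, 50.5 and 25.2 CPM in MCDHFD neutrophils, without overlap (log2 change 1.22, SE 0.296, adjusted p = 0.00823). The call was lost without cells with a cycling marker, without ND replicate 1 and with diet alone. Outside cells Slc43a2 was at 27.2 and 22.3 CPM in ND, above the ND neutrophils, and at 34.4 and 39.9 CPM in MCDHFD. The part of this free RNA was not tested. Slc38a2, the sodium-coupled neutral amino acid carrier that is induced when amino acids run low, was at 71.8, 42.5 and 114 CPM in ND and 155, 197 and 107 CPM in MCDHFD. Its groups overlapped by 1 library of each diet (log2 change 0.94, SE 0.23, adjusted p = 0.00871). This call was lost with cells of more than 1 gate kept, without ND replicate 1 and with diet alone. Outside cells Slc38a2 was at 74.8 and 64.1 CPM in ND and 92.5 and 84.4 CPM in MCDHFD. The part of this free RNA was not tested. The related carrier Slc38a1 in dendritic cells was at 154, 136 and 132 CPM and at 135, 100 and 54.2 CPM (-0.54, SE 0.234, adjusted p = 0.387). In B cells the log2 change of Slc38a2 was 0.03 and in NK cells -0.20, neither called. Slc7a5 and Slc19a1 passed the filter in B, CD8 T and CD4 T cells, and neither was called in these.

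Within the polyamine branch Odc1 fell in CD4 T cells and Sat1 rose in neutrophils. CD4 T cells held 45.2, 62.0 and 37.8 CPM of Odc1 with ND and 16.2, 23.5 and 27.5 CPM with MCDHFD, a log2 change of -1.09 (SE 0.166, adjusted p = 0.00112), with no overlap. The difference was -1.06 within the unfiltered and -1.17 within the filtered libraries. It was called in 18 of 19 other settings, diet alone being the exception (adjusted p = 0.578). Foxp3, the mark of regulatory T cells, ran from 40.0 to 75.5 CPM in ND and from 24.9 to 35.2 CPM in MCDHFD CD4 T cells, and cycling markers from 130 to 161 CPM and from 14.7 to 78.8 CPM. Without Foxp3-positive cells the log2 change of Odc1 was -0.88 (adjusted p = 0.0088), and without cells with a cycling marker it was -0.84 (adjusted p = 0.00865). Outside cells Odc1 was at 40.1 and 38.2 CPM in ND and 23.8 and 22.6 CPM in MCDHFD, and the part of this free RNA was not tested.

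Odc1 in CD8 T cells was at 28.8, 36.1 and 23.6 CPM in ND and 18.5, 18.2 and 27.9 CPM in MCDHFD, with overlap (log2 change -0.54, SE 0.144, adjusted p = 0.0544). Sms, spermine synthase, lay lower in every MCDHFD library than in every ND library in CD8 T cells, CD4 T cells, NK cells and monocytes and macrophages. It was not called in any of these. In CD8 T cells it was at 79.0, 93.2 and 91.4 CPM in ND and 70.8, 68.3 and 77.8 CPM in MCDHFD (-0.34, SE 0.0995, adjusted p = 0.0826). In NK cells it was at 107, 142 and 106 CPM and at 87.6, 81.3 and 68.0 CPM (-0.55, SE 0.175, adjusted p = 0.0587). In monocytes and macrophages it was at 47.9, 35.4 and 36.2 CPM and at 24.4, 23.2 and 18 CPM (-0.91, SE 0.18, adjusted p = 0.0751). Outside cells Sms was at 64.1 and 87.0 CPM in ND and 53.9 and 56.1 CPM in MCDHFD. That is above the monocytes and macrophages of the same diet, and the part of this free RNA was not tested. Amd1, which makes the decarboxylated S-adenosylmethionine for this branch, was higher in every MCDHFD library in B cells, at 20.3, 23.6 and 21.3 CPM against 25.2, 25.2 and 31.4 CPM (0.30, SE 0.0774, adjusted p = 0.0517). NK cell Sat1 was at 134, 186 and 112 CPM and at 99.8, 90.0 and 190 CPM, with overlap (-0.42, SE 0.169, adjusted p = 0.143). Neutrophil Sat1 was at 210, 341 and 236 CPM in ND and 376, 464 and 613 CPM in MCDHFD, without overlap (log2 change 0.79, SE 0.215, adjusted p = 0.0145). Outside cells it was at 110 and 105 CPM in ND and 194 and 190 CPM in MCDHFD, and the part of this free RNA was not tested. The call was lost without ND replicate 1, without ND replicate 3, without cells with a cycling marker, with cells of more than 1 gate kept and with diet alone (adjusted p = 0.164).

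Methionine salvage gave 1 call: Mtap, the phosphorylase that splits methylthioadenosine, rose in CD4 T cells. It was at 24.4, 39.3 and 23.1 CPM in ND and 32.1, 39.6 and 54.1 CPM in MCDHFD (log2 change 0.56, SE 0.151, adjusted p = 0.044). The groups overlapped, and the call was lost when any 1 of the 6 libraries was left out. In B cells Mtap was higher in every MCDHFD library, at 22.7, 23.6 and 25 CPM against 27.1, 27.5 and 34.5 CPM, at an adjusted p of 0.112. Apip, Adi1 and Enoph1, the later steps, were not called in any class.

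For glutathione, Gss, its synthetase, rose in neutrophils from 4.11, 9.29 and 1.93 CPM in ND to 17.6, 16.8 and 6.29 CPM in MCDHFD (log2 change 1.64, SE 0.513, adjusted p = 0.0282). The change was 2.51 within the unfiltered libraries and -0.56 within the filtered pair, and it rests on 68 UMIs in all. The call held in 7 of 13 settings, with log2 changes of 0.84 to 2.15. It was lost with DESeq2 (adjusted p = 0.114), with diet alone (0.0852), without ND replicate 1 (0.253) or ND replicate 3 (0.151), without cells with a cycling marker (0.0815) and with cells of more than 1 gate kept (0.305). Outside cells Gss was at 6.10 and 5.25 CPM in ND and 10.0 and 10.5 CPM in MCDHFD, and the part of this free RNA was not tested. Gclm in monocytes and macrophages was at 33.9, 35.4 and 31.1 CPM and at 54.2, 38.3 and 101 CPM, without overlap and not called (0.75, SE 0.251, adjusted p = 0.275). Dendritic Gclc, the catalytic subunit, ran from 17.5 to 370 CPM among ND libraries and from 46.4 to 86.4 CPM with MCDHFD (log2 change -1.56, SE 0.574, adjusted p = 0.256), and without ND replicate 1 the log2 change was 0.15 (adjusted p = 0.976). Without ND replicate 3 it was -2.25 (adjusted p = 6.09e-05).

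**Figure D5:**
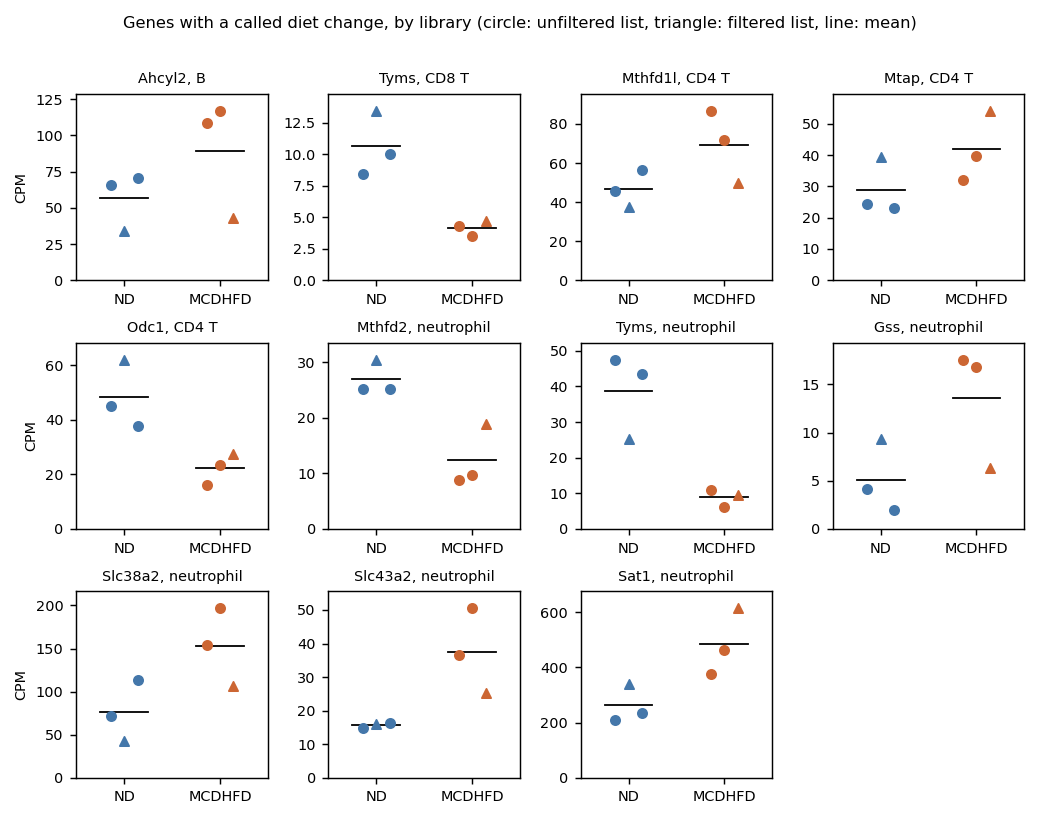
The 11 called gene and class pairs by library, as CPM on axes from 0, with ND in blue, MCDHFD in orange, circles for unfiltered lists, triangles for filtered lists and lines for the mean of 3 libraries. The groups do not overlap for Tyms in CD8 T cells, Odc1 in CD4 T cells and Tyms, Mthfd2, Slc43a2 and Sat1 in neutrophils.

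The neutrophil changes stand beside a wide shift of that class. The 6 neutrophil markers summed to 193019 to 216344 CPM in ND and to 117383 to 143042 CPM in MCDHFD neutrophils. Of these Cxcr2 and Retnlg, genes of mature neutrophils, rose, and Ngp and Camp, granule genes made during maturation, fell. Monocyte and macrophage markers summed to 7645 to 10282 CPM and to 2221 to 3954 CPM, where 3 of the 4 tested rose and 1 fell. Erythroid markers, which include none of the members, summed to 38.7 to 2085 CPM and to 26.6 to 21273 CPM. Markers of B and T cells were higher with MCDHFD without overlap. B cell markers summed to 9.29 to 34.8 CPM and to 50.3 to 116 CPM (2 of 2 tested rose). T cell markers summed to 17.9 to 27.1 CPM and to 51.4 to 84.9 CPM (2 of 3 rose). NK cell markers went the other way without overlap, at 45.1 to 146 CPM and at 6.29 to 27.1 CPM (1 of 1 tested fell). Leaving out ND replicate 1 took the called genes of this class from 1848 to 370 and the called members from 6 to 1, which was Tyms. The part of these markers in the 6 changes was not tested.

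Whether a diet effect differed between classes was tested against B cells, with each library as a block. Neutrophils differed from B cells in 6 of 15 members, where 17.1% of all genes did: Tyms, Mthfd2, Mthfs, Slc43a2, Slc38a2 and Sat1. CD4 T cells differed in 3 of 34 (Odc1, Ahcyl2 and Shmt2) against 4.56% of genes, and CD8 T cells in 2 of 34 (Ahcyl2 and Shmt2) against 3.35%. The difference in log2 change of Odc1, CD4 T less B cells, was -0.79 (SE 0.161, adjusted p = 0.00438), and it was not called without cells with a cycling marker (adjusted p = 0.0866) or with cells of more than 1 gate kept (0.0664). That of Shmt2 was higher than in B cells by 0.83 in CD4 T cells (SE 0.222, adjusted p = 0.0317) and by 0.61 in CD8 T cells (SE 0.152, adjusted p = 0.0313), although Shmt2 was called in none of these 3 classes alone. The Shmt2 differences were called in 6 of 16 other settings in CD4 T and 7 of 16 in CD8 T cells. NK cells, monocytes and macrophages, and dendritic cells differed from B cells in 0 members, against 1.48%, 0.237% and 1.26% of genes. At an unadjusted p under 0.05 edgeR counted 2 of 23, 6 of 29 and 5 of 20 members there. The share of all genes at that threshold is not given for this contrast, and no other tool was run on it.

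Neighbouring pathways were read from 8 lists with 100 genes. In B cells 4 of the 83 tested rose and 2 fell (7.23%, where 7.03% of all genes were called), and in CD8 T cells 1 of 73 rose and 1 fell (2.74% against 2.54%). In CD4 T cells 1 of 71 rose (1.41% against 4.7%), in NK cells 1 of 60 rose and 1 fell (3.33% against 5.11%), and in dendritic cells 1 of 42 rose (2.38% against 1.13%). In neutrophils 7 of 46 rose and 8 fell (32.6% against 27.9%). With diet alone 5 of the neutrophil calls were made again and 0 of those in the other classes. At an unadjusted p under 0.05 with list form, edgeR counted 18 of these genes in B, 8 in CD8 T, 7 in CD4 T, 4 in NK and 4 in dendritic cells. Of all genes tested in these classes 25.2%, 15.9%, 17.2%, 19.8% and 11.0% were under that threshold. Monocytes and macrophages gave 0 of 73, with 12 at an unadjusted p under 0.05 in edgeR and 2 called by DESeq2. Of all 9729 genes tested in that class, 12.8% were under the unadjusted threshold and DESeq2 called 182. Ddit4, an inhibitor of the growth kinase mTORC1, rose in B, CD8 T, CD4 T and NK cells. In CD8 T cells it was at 35.2, 125 and 36 CPM in ND and 54.8, 79.3 and 353 CPM in MCDHFD, with overlap, a log2 change of 1.09 (SE 0.156, adjusted p = 0.000774). DESeq2 called it in CD8 T and CD4 T cells, not in B cells (adjusted p = 0.0786), and gave it no adjusted p in NK cells. Atf4, the transcription factor of the amino acid response, was tested in all 7 classes and called in none, with log2 changes of -0.18 to 0.17. In B cells Slc7a1, a carrier of arginine and lysine, rose by 0.57, Slc25a32, the mitochondrial folate carrier, by 0.34 and Myc, a driver of growth, by 0.58, while Mpst, a cysteine-derived sulfur transferase, fell by 0.51 on the log2 scale. Of these DESeq2 did not call Slc25a32 (adjusted p = 0.126). Ezh2, a histone methyltransferase that uses S-adenosylmethionine, fell by 0.41 in B cells, by 0.62 in CD8 T cells and by 0.97 in neutrophils on the log2 scale, and DESeq2 called it in B cells alone of these 3 (adjusted p = 0.268 in CD8 T cells and 0.126 in neutrophils). Cycling markers fell in these 3 classes too (6 of 6, 4 of 4 and 4 of 6 tested). Their part in the change of Ezh2 was not tested.

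Neutrophil genes of these lists included both directions within a pathway. Dnmt1, the maintenance DNA methyltransferase, was at 38.7, 58.4 and 45.4 CPM in ND and 14.6, 5.31 and 6.29 CPM in MCDHFD (log2 change -2.29, SE 0.355, adjusted p = 0.000724). In this class 4 of 6 cycling markers also fell, and their part in the change of Dnmt1 was not tested. Among polyamine genes Smox, spermine oxidase, rose by 1.34 and Arg2, an arginase, by 1.30 on the log2 scale, beside the rise of Sat1. Among glutathione genes Gsr, the reductase, and Slc7a11, the cystine carrier, rose by 0.70 and 0.74, and the peroxidase Gpx4 fell by 0.67 on the log2 scale. Csad, of taurine synthesis, rose by 1.41, and Tst, a thiosulfate sulfurtransferase, fell by 2.33 on the log2 scale. Of the neutrophil genes named here, Dnmt1, Smox, Csad and Tst were also called with diet alone. Not called with it were Arg2 (adjusted p = 0.0665), Gsr (0.16), Slc7a11 (0.307), Gpx4 (0.243) and Ezh2 (0.133).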

How the data were processed

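The 6 libraries were deposited as raw UMI counts per gene and cell barcode. The 10x 3′ v3.1 kit is named per the labels' protocols, and Cell Ranger 9.1.0, Seurat 4.3.0 and mm10 per the submitters' processing notes, while the file headers give Cell Ranger 9.0.1 for the 4 unfiltered and 7.2.0 for the 2 filtered lists. The members and gene lists were chosen with earlier results of these data known. Counts were summed per library and class and tested with edgeR 4.0.16 in R 4.3.3 (TMM scaling, filterByExpr by diet, quasi-likelihood test, diet plus list form, 3 residual degrees of freedom, Benjamini-Hochberg over all genes of a class, threshold 0.05). A class needed 20 cells in every library. CPM are shares of the class sum, without TMM. With 3 libraries a side, an exact permutation test of 1 gene could not pass 0.05.

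Members called in a class are given by library, and where a class had fewer than 3 of these, the 3 with the smallest p. Levels are named for up to 3 members per role with the highest ratio of highest to median class. No doublet caller was used in the main sums. Scrublet marked 0 cells in both filtered libraries, so it did not work there. The model scripts were tested on simulated data. The test of differences between classes had less power there than the diet tests, and the limit set for passing was lowered after that was seen. The erythroid fits by library were added after seeing the data. Alternatives with DESeq2 1.42.0 and 18 other settings are in the closing section. Promoters are RefSeq's for GRCm38.p6.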

Additional observations from a re-analysis of the deposited data

Results flagged for a closer look

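Each result here is a difference between the diet change of a class and that of B cells, from a test of the difference itself with each library as a block (edgeR, adjusted p under 0.05). All rest on 3 libraries per diet. In neutrophils the difference in log2 change from B cells was -2.12 for Tyms, -1.24 for Mthfd2, 0.69 for Mthfs, 1.06 for Slc43a2, 1.00 for Slc38a2 and 0.86 for Sat1. Without ND replicate 1, and without ND replicate 3, 0 of these 6 were called. In CD4 T cells it was -0.79 for Odc1, -0.55 for Ahcyl2 and 0.83 for Shmt2. In CD8 T cells it was -0.41 for Ahcyl2 and 0.61 for Shmt2. For Shmt2 the call was lost in both classes when any 1 library but ND replicate 3 was left out (highest adjusted p = 0.245 in CD4 T and 0.219 in CD8 T cells). For Ahcyl2 it was lost in CD4 T cells without ND replicate 3, MCDHFD replicate 2 or MCDHFD replicate 3 (highest adjusted p = 0.129), and in CD8 T cells without ND replicate 3 (0.0562). Ahcyl2 rose in B cells, and its log2 change was -0.02 in CD4 T and 0.17 in CD8 T cells.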

How the results depend on the processing

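Counts of called members moved with most settings, against 11 in all (1 in B, 1 in CD8 T, 3 in CD4 T, 6 in neutrophils) and 11 differences from B cells. The cause of these moves was not tested. The share of all genes called moved as well and is not given for most settings, so these counts are not results about the members. With diet alone the counts were 0 in B, CD8 T and CD4 T cells, 1 in neutrophils and 1 in all, and differences from B cells were 0 in CD8 T, 1 in CD4 T and 5 in all. Among the 4 unfiltered libraries alone they were 5 in B, 4 in CD8 T, 1 in NK and 21 in all, with 1 difference each in CD8 T and CD4 T cells. Without a filter on low counts they were 5 in B, 0 in CD8 T, 5 in monocytes and macrophages, 1 in dendritic cells and 23 in all, with 1 difference in monocytes and macrophages, 1 in dendritic cells and 17 in all. With cells of more than 1 gate kept they were 2 in B, 0 in CD8 T, 2 in neutrophils and 6 in all, with differences of 1 in CD8 T, 1 in CD4 T, 0 in neutrophils and 2 in all. Without cells with a cycling marker they were 0 in CD8 T, 1 in neutrophils and 4 in all, with differences of 1 in CD8 T, 1 in CD4 T, 2 in neutrophils and 4 in all. DESeq2 called 2 of 34 members in B cells, where it called 1110 of 12978 genes. In CD4 T cells it called 1 of 34 members and 221 of 9584 genes. Upper-quartile scaling gave 2 in B cells, and the table without haemoglobin and immunoglobulin genes 3 in B cells.

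With 1 library left out, called members ran from 0 to 5 in B, 1 to 4 in CD8 T, 1 to 2 in CD4 T, 0 to 1 in NK, 0 to 3 in monocytes and macrophages, 1 to 9 in neutrophils, 0 to 1 in dendritic cells and 4 to 21 in all. B cells gave 0 without ND replicate 3 or MCDHFD replicate 2. The total was 4 without ND replicate 1, 18 without ND replicate 2 and 21 without MCDHFD replicate 3. Differences from B cells ran from 1 to 1 in CD8 T, 1 to 2 in CD4 T, 0 to 2 in monocytes and macrophages, 0 to 8 in neutrophils, 0 to 1 in dendritic cells and 3 to 10 in all. The log2 change turned positive for Gclc in dendritic cells without ND replicate 1 (0.15, over a range of -2.25 to 0.15 with 1 library left out) and for Slc38a1 in dendritic cells with cells of more than 1 gate kept (0.0068).

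The replicate numbers did not pair the libraries: deviations of same-numbered libraries correlated at 0.24 to 0.57 for replicate 1 and at -0.29 to -0.76 for replicates 2 and 3 over the 7 classes. With the replicate block, 2 members were called in B, 5 in monocytes and macrophages and 18 in all, on 1 residual degree of freedom.

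Precision is limited by 3 libraries per diet, of which 1 each has another list form, and by 28 to 77 dendritic and 14 to 42 erythroid cells per library.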

Other observations

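Single genes of the neighbouring lists were called in NK and dendritic cells, where no member was. Of all genes 5.11% and 1.13% were called in these classes, and a difference between the lists and the members was not tested. In NK cells Oaz1, the antizyme that marks ornithine decarboxylase for degradation, was at 740, 1026 and 704 CPM in ND and 477, 515 and 809 CPM in MCDHFD, with overlap (log2 change -0.59, SE 0.169, adjusted p = 0.0378 in edgeR). In dendritic cells Gsr, glutathione reductase, was at 47.4, 39.6 and 31.1 CPM in ND and 53.5, 108 and 139 CPM in MCDHFD, without overlap (1.29, SE 0.291, adjusted p = 0.0394 in edgeR). Neither was called with diet alone (adjusted p = 0.708 for Oaz1 and 0.711 for Gsr), and DESeq2 called Oaz1 (adjusted p = 0.0426) but not Gsr (0.174). In neutrophils the stress-response gene Sesn2 rose by 1.11 and the Myc partner Max by 0.63 on the log2 scale. There Paics, of purine synthesis, fell by 1.57, Ggh, which trims folate tails, by 1.38, Npm1, a nucleolar protein, by 1.1 and Pcmt1, a protein repair methyltransferase, by 0.99 on the log2 scale. Of these 6 neutrophil genes Sesn2 was also called with diet alone (adjusted p = 0.0493), and the others were not (0.0639 to 0.189).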
